A study of Mus musculus with 8 samples.

Results

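Dll1+ tumor cells were compared with Dll1- tumor cells of the same mice in the PyMT-Dll1GFP model, using 4 of the 8 RNA-seq libraries of the series. The members were the 4 libraries labelled with the GFP reporter, 1 Dll1+ and 1 Dll1- library from each of 2 mice, called mouse 1 and mouse 2 here. The mice carried MMTV-PyMT, a transgene that drives the polyoma middle T antigen in mammary epithelium and gives luminal-like mammary tumors, together with Dll1GFP-IRES-Cre-ERT2, a knock-in that places GFP and a tamoxifen-inducible Cre at the Dll1 locus. Both were on a C57BL/6 background, and ages and the zygosity of the knock-in were not given in the sources used here. Tumors were digested with collagenase and hyaluronidase, cells positive for CD45, CD31 or Ter119 were sorted out, and the remaining cells were sorted by GFP, so that the cells were epithelium-enriched and not sorted on an epithelial marker. The other 4 libraries came from 2 PyMT-Dll1mCh mice, whose mCherry reporter is carried on a BAC, and they served to estimate the spread between pairs and to compare the effect between reporters.

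Dll1 is a transmembrane ligand of the Notch pathway. When it binds a Notch receptor on a neighbouring cell, the receptor is cut by ADAM proteases and gamma-secretase, and its intracellular part enters the nucleus with RBPJ and Mastermind-like proteins and switches on Hes and Hey repressors. In the mammary gland, epithelial cells fall into a basal and myoepithelial layer, luminal progenitors, hormone-sensing luminal cells and milk-secreting cells, each with its own marker genes. The comparison addresses which genes accompany Dll1 expression within 1 tumor.

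The 4 GFP libraries held between 27301396 and 45198980 estimated counts, and 18322 genes passed the low-count filter. Levels are given as CPM, counts scaled to a common library size of 1 M after TMM normalization, and values in pairs are in the order mouse 1, mouse 2. A total of 3 counts corresponded to 0.0670 to 0.105 CPM in these libraries, a floor that covers counting error only. With an adjusted p under 0.05 (edgeR's quasi-likelihood test with Benjamini-Hochberg adjustment), 1673 genes differed between Dll1+ and Dll1- cells, which is 9.13% of those tested. Of these, 786 (4.29%) were higher and 887 (4.84%) were lower in Dll1+ cells. Requiring at least a 2-fold change left 261 higher genes (1.42%) and 367 lower genes (2%). The median log2 fold change of all tested genes was -0.01. TMM scaling itself brings this value near 0, so that it cannot show whether RNA levels shifted in general. These calls need both mice: without mouse 1 there were 20 called genes, and without mouse 2 there were 2. All gene lists were chosen with earlier results of these data known, and 1 of them was drawn up from those results. Over all lists other than the cell type markers, 254 members were called, and 84 with no mouse term in the model. A member of several lists counts in each. With only 2 mice per reporter, p-values rest on the spread between 4 pairs with 2 residual degrees of freedom.

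The difference within each mouse pointed the same way for 69.6% of all tested genes. The differences in mouse 1 and mouse 2 had a Pearson correlation of 0.32 and a Spearman correlation of 0.45 over the genes, which are measured in the same 4 libraries and are no replicates of each other. Of the called genes, 1670 had the same direction in both mice, which the test itself favours. Groups that did not overlap were likewise near general among called genes, at 775 of the 786 higher and 878 of the 887 lower. Their share over all tested genes was not counted. A lack of overlap between the groups of a called gene, where given below, therefore only describes its values and adds no support.

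**Figure D1:**
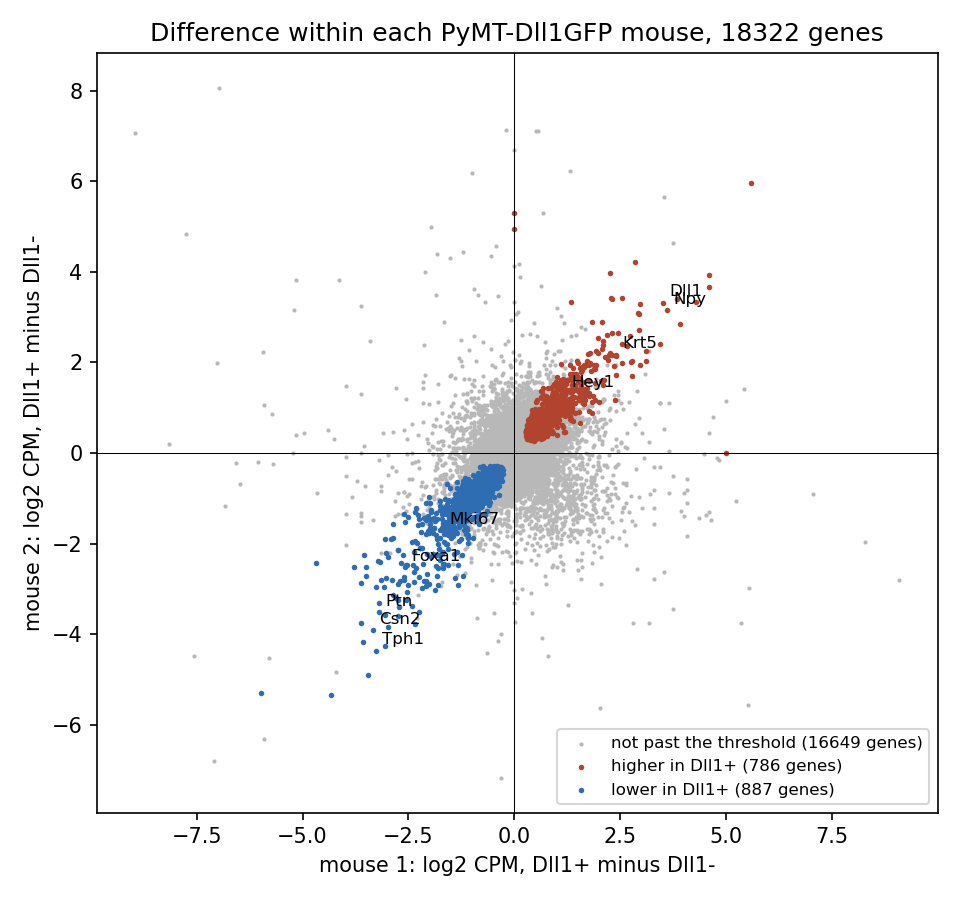
Each point is 1 of 18322 tested genes, with the log2 CPM difference between Dll1+ and Dll1- cells in mouse 1 on the x axis and in mouse 2 on the y axis. The 786 genes called higher (red) and the 887 called lower (blue) lie along the diagonal, with Dll1 and Npy far up and Tph1 and Csn2 far down, while many uncalled genes (grey) differ in 1 mouse and not in the other.

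The gene behind the sort checked the labels. Dll1 (chr17:15367354-15376872, minus strand, GRCm38) was at 7.61 and 13.7 CPM in Dll1- and 87.5 and 138 CPM in Dll1+ cells. Both Dll1+ libraries stood far above both Dll1- libraries, which still held Dll1 RNA. The difference was 10.7-fold, or 3.42 ± 0.11 (SE) on the log2 scale, with an adjusted p of 0.000517. Leaving out mouse 1 or mouse 2 gave adjusted p-values of 0.0395 and 0.0328. Exons of Dll1 share 867 of their 4219 bases with A930024N18Rik on the opposite strand, and the strand setting of the counting was not given in the sources used here.

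Markers of the cells removed by the sort were detected in all 4 libraries, apart from 1 red-cell marker with 0 counts in both Dll1+ libraries, and another red-cell marker differed past the threshold. Ptprc, which encodes CD45, was at 4.39 and 3.31 CPM in the Dll1+ and 3.62 and 2.88 CPM in the Dll1- libraries. Pecam1, which encodes CD31, was at 13.7 and 13.9 CPM in the Dll1- libraries, against 14.3 and 14.1 CPM in the Dll1+ libraries. The groups overlapped for Ptprc and differed by little for Pecam1, and their log2 fold changes were 0.24 and 0.04. Epcam, an epithelial adhesion molecule that was not used in the sort, was at 1100.0 and 1098 CPM in Dll1+ cells and 919 and 982 CPM in Dll1- cells, with an adjusted p of 0.278. Summed over its markers, the immune list lay between 171.3 and 194 CPM, the endothelial list between 77.8 and 86.1 CPM, the pericyte list between 157 and 199 CPM and the fibroblast list between 1037 and 1266 CPM in the 4 libraries, and Dll1+ and Dll1- ranges overlapped for each list but the pericytes, at 157 and 181 CPM in Dll1- and 193 and 199 CPM in Dll1+ cells. Of 14, 10, 7 and 10 tested members of these lists, 0 were called in either direction by edgeR. At an unadjusted p under 0.05 the counts were 1, 0, 3 and 0, all higher, and 8 of 11 alternative fits, DESeq2 among them, called 1 immune member. Pericyte members were called higher in 3 of the 11, with 2 genes when no filter was used and 1 gene each with at least 10 counts in every library and without mouse 1 of the mCherry reporter. The immune member was the macrophage gene Cd68, at log2 0.58 (adjusted p = 0.0509). Of 5 tested red-cell markers, 1 was called, Alas2, a heme synthesis enzyme of red-cell precursors, at log2 -1.72. The PyMT-Dll1mCh libraries differed in this respect, with fibroblast markers at 7857 and 22484 CPM in Dll1- cells and 3213 and 3374 CPM in Dll1+ cells.

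**Figure D2:**
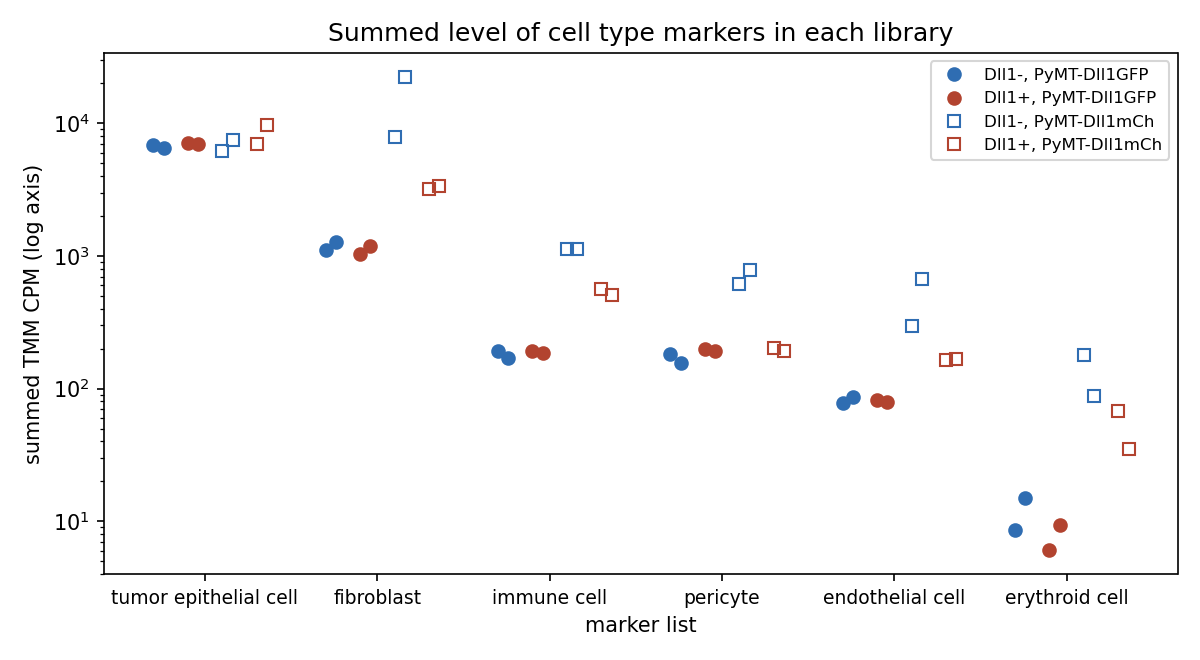
The summed TMM CPM of each marker list (log axis) is drawn for every library, with filled circles for PyMT-Dll1GFP and open squares for PyMT-Dll1mCh mice. In the GFP mice Dll1- (blue) and Dll1+ (red) libraries lie close together for the immune, endothelial and fibroblast lists, whereas in the mCherry mice the Dll1- libraries hold more fibroblast, immune, pericyte, endothelial and erythroid marker RNA than the Dll1+ libraries.

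Of 43 tested genes of the Notch pathway, 3 were higher and 1 was lower in Dll1+ cells, a share near the 9.13% of all tested genes, and the median log2 fold change was 0.01. The 3 higher genes include Dll1, whose reporter defined the sort, so that its call follows from the design. Among the receptors, Notch1 was at 293 and 338 CPM in Dll1- and 382 and 357 CPM in Dll1+ cells. It did not pass the test (adjusted p = 0.220). Notch2 and Notch3 had log2 fold changes of -0.05 and 0.23, and 0 of 4 receptors passed the edgeR test, with 1 at an unadjusted p under 0.05. The ligands Jag1 and Jag2 were at -0.51 and 0.23, also short of it. Dll4, the other tested ligand, was at 12.4 and 11.8 CPM in the Dll1+ and 5.63 and 5.75 CPM in the Dll1- libraries. It was 2.13-fold higher in Dll1+ cells but did not pass the test (adjusted p = 0.0985). Of the proteins that process or modify ligand and receptor, 1 of 19 passed. This was Adam10, the protease that makes the first of the activating cuts, at 182 and 156 CPM in the Dll1- libraries, against 135 and 114 CPM in the Dll1+ libraries. Adam10 was lower in both Dll1+ libraries than in either Dll1- library (log2 fold change -0.44 ± 0.07 (SE), adjusted p = 0.0187).

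Among the target genes, Hey1 stood out. Hey1, a basic helix-loop-helix repressor switched on by Notch, was at 255 and 290.4 CPM in Dll1+ cells and 112 and 116 CPM in Dll1- cells. Its Dll1+ values were more than its Dll1- values in each mouse, by 2.39-fold overall (log2 fold change 1.26 ± 0.09 (SE), adjusted p = 0.00280). Dtx3, which belongs to the Deltex family of ubiquitin ligases, was also higher, from 138 and 158 CPM to 192 and 217 CPM in mice 1 and 2. It is counted with the targets by its place in the list, and whether Notch controls Dtx3 was not tested. The other 8 tested targets, among them Hes1 at log2 0.33 and Heyl at log2 -0.48, did not pass the test.

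The genes with the highest fold changes were mostly of low level in Dll1- cells. Npy, a secreted neuropeptide, was at 3.68 and 3.02 CPM in Dll1- and 45.1 and 27.2 CPM in Dll1+ cells. Amtn, a secreted protein of tooth enamel, was at 12.8 and 10.6 CPM in the Dll1+ and 0.853 and 0.971 CPM in the Dll1- libraries. Hepacam2, an immunoglobulin-family adhesion molecule, was at 4.43 and 4.68 CPM in the Dll1- libraries, against 33.6 and 40.4 CPM in the Dll1+ libraries. For all 3 genes the lower Dll1+ value was several times the higher Dll1- value, and the fold changes were 10.5, 12.7 and 8.09 (adjusted p = 0.00270, 0.00270 and 0.00217). Asic1, an acid-sensing sodium channel, was at 18.8 and 22.1 CPM in Dll1+ cells and 2.39 and 2.60 CPM in Dll1- cells, and Them5, a mitochondrial thioesterase, was at 2.29 and 1.80 CPM in Dll1- and 13.5 and 19.7 CPM in Dll1+ cells. These too left a wide gap between the groups, 8.17-fold and 7.98-fold. Gfra4, a co-receptor of the GDNF family, Zfp385b, 4930469K13Rik, Npr3, the clearance receptor of natriuretic peptides, Brinp1, Tmem45b and 9530053A07Rik were also among the 15 genes with the highest fold change and a mean of at least 1 CPM, with log2 fold changes from 2.80 to 3.24.

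Gm4070 had no count in either Dll1- library and 53 and 107 counts in the Dll1+ libraries of mice 1 and 2. Against a floor of 3 counts per library it was at least 18.1-fold higher in mouse 1 and at least 23.0-fold higher in mouse 2. In the mCherry mice it was at log2 0.17 (edgeR, adjusted p = 0.733). The difference between reporters fell just short of the threshold (edgeR, adjusted p = 0.0538). Exons of Gm4070 share 259 of 9275 bases with the pseudogene Gm18852 on the same strand, so that the split of reads between them is uncertain. Bglap2, of the osteocalcin family, likewise had 0 counts in Dll1- cells, and 21 and 16 in Dll1+ cells, at least 7.16-fold and 3.44-fold higher. Slc26a4, an anion exchanger also called pendrin, had 0 and 1 counts in the Dll1- libraries and 26 and 40 in the Dll1+ libraries. Reads of Bglap2 could be split with its near-identical copies. 

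Among genes of high level, differences were smaller in fold and larger in counts. Igfbp5, a secreted binding protein of insulin-like growth factors, was at 22826 and 23912 CPM in the Dll1+ and 11483 and 10092 CPM in the Dll1- libraries. Spp1, which encodes osteopontin and shares 309 of its 1648 exon bases with Gm42793 on the same strand, was at 2360.0 and 1559 CPM in the Dll1- libraries, against 6013 and 3540.5 CPM in the Dll1+ libraries. Both Dll1+ values of each gene were well above both Dll1- values, at log2 1.12 and 1.27 (adjusted p = 0.0126 and 0.00809). Csn3, the kappa-casein of milk, was at 12052 and 12957 CPM in Dll1+ cells and 6427 and 6424 CPM in Dll1- cells. The 2 mice differed little in either fraction of Csn3, and the log2 fold change was 0.96 ± 0.15 (SE). The other called genes among the 10 with the most counts were Zfp36, Fosb, Egr1, Klf6, Ly6e, H3f3b and Serinc3, all higher in Dll1+ cells, at log2 0.47 to 0.80.

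Among the 15 genes with the lowest fold changes were the following. Tph1, the tryptophan hydroxylase that starts serotonin synthesis, was at 9.72 and 11.3 CPM in Dll1- and 0.976 and 0.514 CPM in Dll1+ cells. Ptn, the growth factor pleiotrophin, was at 5.34 and 3.29 CPM in the Dll1+ and 48.8 and 37.8 CPM in the Dll1- libraries. Both Dll1+ libraries were at a small part of either Dll1- library for these 2 genes, a 14.7-fold and a 10.2-fold decrease (adjusted p = 0.0250 and 0.0214). Dmbt1, a secreted mucin-like glycoprotein, was at 79.1 and 78.6 CPM in the Dll1- libraries, against 11.8 and 6.49 CPM in the Dll1+ libraries, and Ido1, which degrades tryptophan, was at 1.78 and 0.693 CPM in Dll1+ cells and 16.7 and 7.21 CPM in Dll1- cells. Dmbt1 was level between the mice in Dll1- cells, and Ido1 was higher in mouse 1 in both fractions, but in neither gene did the groups overlap. Their log2 fold changes were -3.17 and -3.30. The chemokine gene Cxcl15 (-3.99), Ache, which encodes acetylcholinesterase (-3.71), Slc35f3 (-3.53), the glycine decarboxylase Gldc (-3.38), Mum1l1 (-3.32), the mucin Muc16 (-3.28), Gm4847 (-3.25) and Cldn6, a tight-junction claudin (-3.20), were lower by a like amount on the log2 scale. Sprr2a3 (-3.82) and Ctsr (-3.25) also belonged here, but each has near-identical paralogs, so that its reads may be split. All these genes had the same sign in both mice by the rule that chose them.

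Markers of the mammary lineages moved in both directions. In such bulk libraries, fewer cells of a type and less RNA per cell cannot be told apart. Of 42 tested basal and myoepithelial genes, 7 were higher and 2 were lower in Dll1+ cells, beside 4.29% and 4.84% of all tested genes. Their median was 0.32 against -0.01 for all genes. Krt5, a keratin of basal cells, was at 13.2 and 6.17 CPM in Dll1- and 70.1 and 27.9 CPM in Dll1+ cells. Col17a1, a collagen of the hemidesmosome, was at 25.6 and 8.41 CPM in the Dll1+ and 3.75 and 2.04 CPM in the Dll1- libraries. Lgr5, a receptor for R-spondins that marks some mammary stem cells, was at 4.33 and 2.53 CPM in the Dll1- libraries, against 21.5 and 16.2 CPM in the Dll1+ libraries. In each of these 3 genes mouse 1 was higher than mouse 2 in both fractions, and all Dll1+ values exceeded all Dll1- values. The increases were 4.93-fold, 5.46-fold and 5.61-fold (adjusted p = 0.00686, 0.0187 and 0.0170). Mme, the surface peptidase CD10 of myoepithelium, was higher as well (log2 fold change 1.44 ± 0.17 (SE), adjusted p = 0.0109), as were Tpm2, Bcam and Trp73, although Trp73 rested on at most 20 counts in a library. Krt14, the partner of Krt5, was at 173 and 97.7 CPM in Dll1+ cells and 82.2 and 59.5 CPM in Dll1- cells. Krt14 did not pass the test (adjusted p = 0.168), nor did the basal factor Trp63 at log2 0.60 (adjusted p = 0.0603). Of 10 contractile genes, 1 was called, a share near the 9.13% of all tested genes. Tbx3 and Lgr6 were the 2 lower members, at log2 -2.55 and -0.59. Over all 42 genes, 28 values were positive and 14 were negative. Among the uncalled negative members, the keratin Krt15 was at 5.61 and 2.64 CPM in Dll1+ and 8.77 and 5.16 CPM in Dll1- cells. Actg2, a contractile actin, was at 0.453 and 0.179 CPM in Dll1+ and 0.955 and 1.04 CPM in Dll1- cells.

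Of 42 tested luminal genes, 6 were higher and 11 were lower, beside 4.29% and 4.84% of all tested genes. In the progenitor role, 4 of 8 members were higher and 0 were lower, and all 8 values were positive, with a median of 0.58. Tspan8, a tetraspanin at the cell surface, was at 33.1 and 23.5 CPM in Dll1- and 151 and 143 CPM in Dll1+ cells. The Dll1+ libraries of the 2 mice were close to each other and well above the Dll1- libraries (log2 fold change 2.40 ± 0.12 (SE), adjusted p = 0.00270). Kit, the stem cell factor receptor, was at 436 and 471 CPM in the Dll1+ and 279.6 and 252 CPM in the Dll1- libraries, a 1.71-fold difference, and Cd14 and Cd55 were at log2 0.76 and 0.59.

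Hormone-sensing genes went the other way. Of the 8 tested members, 5 were lower and 0 were higher, beside 4.84% and 4.29% of all tested genes. All 8 values were negative, with a median of -0.97. Pgr, the progesterone receptor, was at 20.3 and 14.9 CPM in the Dll1- libraries, against 3.87 and 2.39 CPM in the Dll1+ libraries. Areg, an EGF-family ligand made by hormone-sensing cells, was at 1.85 and 2.08 CPM in Dll1+ cells and 17.0 and 11.2 CPM in Dll1- cells. Wnt4, a Wnt ligand induced by progesterone, was at 9.45 and 6.65 CPM in Dll1- and 1.60 and 1.16 CPM in Dll1+ cells. Each of the 3 genes was several-fold higher in both Dll1- libraries than in either Dll1+ library, with decreases of 5.71-fold, 6.93-fold and 5.80-fold (adjusted p = 0.0112, 0.00537 and 0.00368). Foxa1, a pioneer factor of luminal cells, was at 3.63 and 3.22 CPM in the Dll1+ and 21.9 and 18.7 CPM in the Dll1- libraries, and Cited1, a transcriptional co-activator, was at 7.91 and 9.15 CPM in the Dll1- libraries, against 1.85 and 1.16 CPM in the Dll1+ libraries. These 2 factors fell in with the hormone-sensing genes in size, at log2 -2.56 and -2.54. Prlr, the prolactin receptor, and Prom1 were lower at log2 -0.98 and -0.71. Esr1, the estrogen receptor, was at 12.1 and 12.2 CPM in Dll1+ cells and 13.5 and 11.6 CPM in Dll1- cells. No separation was seen for Esr1, whose groups overlapped, with a log2 fold change of -0.04 ± 0.15 (SE).

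Milk protein genes did not move together. Wap, the whey acidic protein, was at 48.2 and 33.2 CPM in Dll1- and 13.5 and 8.86 CPM in Dll1+ cells, and Csn2, beta-casein, was at 0.732 and 1.72 CPM in the Dll1+ and 7.78 and 26.4 CPM in the Dll1- libraries. Both were lower in Dll1+ cells of each mouse, by 3.66-fold and 13.7-fold, while Csn3 was higher as given above. Of 12 secretory genes, 2 were higher and 2 were lower, beside 4.29% and 4.84% of all tested genes. The luminal keratin Krt8 was at 2091 and 2102 CPM in the Dll1- libraries, against 2657 and 2405 CPM in the Dll1+ libraries, with an adjusted p of 0.223, and Krt18 had an adjusted p of 0.245. Krt19, another luminal keratin, was lower at log2 -0.72 (adjusted p = 0.0195). With no mouse term in the model, 1 luminal gene was called higher and 4 lower, and leaving out mouse 1 or mouse 2 left 1 and 0 called luminal genes.

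**Figure D3:**
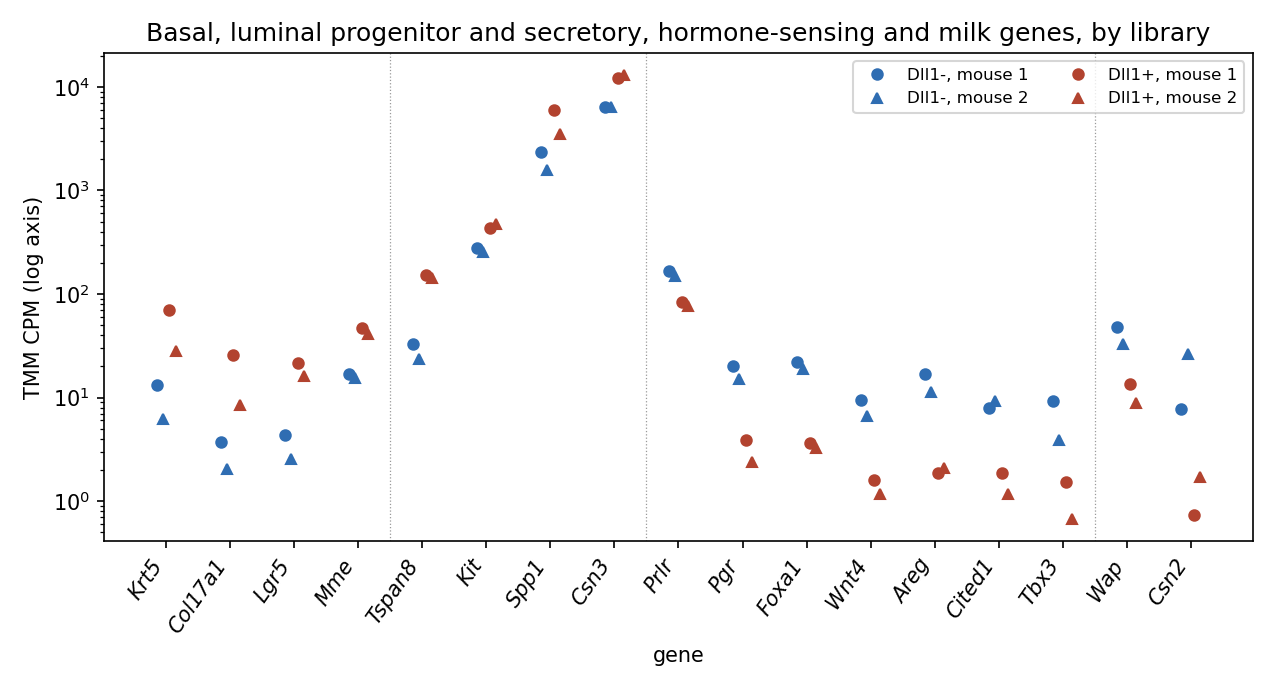
The TMM CPM (log axis) of 17 called lineage genes in the 4 libraries is shown with blue for Dll1-, red for Dll1+, circles for mouse 1 and triangles for mouse 2. From left to right, dotted lines part basal genes such as Krt5 and luminal progenitor and secretory genes such as Tspan8 and Csn3. Then follow hormone-sensing and associated genes such as Pgr and Foxa1, and the milk genes Wap and Csn2. Red symbols lie above blue in the first 2 blocks and below in the last 2. The genes are called members placed with their direction known, so that this separation is no test of the blocks. Tbx3, which the text counts with the basal genes, stands in the third block, and Lgr6, the other lower basal member, is not drawn.

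Genes of cell division were lower in Dll1+ cells. Of 59 tested genes of mitosis, 57 were lower and 0 were higher, against 4.84% of all genes lower, and the median was -1.20, with medians of -1.17 in mouse 1 and -1.25 in mouse 2. All 14 mitotic kinases and cyclins and all 27 spindle and kinetochore genes passed the test, and of 18 genes of mitotic exit and checkpoints 16 did. Mki67, which encodes the proliferation antigen Ki-67, was at 59.3 and 58.2 CPM in Dll1+ cells and 191 and 189 CPM in Dll1- cells. Ccnb2, a cyclin that drives entry into mitosis, was at 23.0 and 22.4 CPM in Dll1- and 7.39 and 7.14 CPM in Dll1+ cells. Kif11, a motor protein of the spindle, was at 13.1 and 12.8 CPM in the Dll1+ and 35.9 and 38.6 CPM in the Dll1- libraries. In these 3 genes the 2 mice gave nearly the same values in each fraction, and both Dll1+ libraries were far under both Dll1- libraries, with decreases of 3.24-fold, 3.12-fold and 2.87-fold. Their adjusted p-values were 0.00270, 0.00270 and 0.00270. Plk1, Cdc20 and Ccna2 were at log2 -1.59, -1.46 and -1.61, and only Pttg1 and Cks1b, at -0.62 and -0.48, did not pass. Without the mouse term 43 of the 59 were called, and when mouse 1 or mouse 2 was left out 0 were, with medians of -1.25 and -1.17.

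Many mitotic genes carry the cell-cycle homology region, or CHR, near their start. The letters TTTGAA, searched on both strands, were found in 17.9% of 32851 RefSeq promoter windows of 300 bases (GRCm38.p6, 250 before to 50 after the start) and in 36 of 51 windows of the mitosis genes, with 49 of the 59 genes matched. Of 47 called genes with a window, 33 held it. The match nearest the start is printed in capitals for 3 of them, to show the shared letters in genes that fell together.

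Plk1: gcgccgcgTTTGAAttcgggga
Ccnb2: gcgcggtaTTTGAAtcgcggac
Cdc20: agttgggtTTTGAAggagccaa

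The Plk1 match begins 30 bases after the start and that of Ccnb2 4 bases after it, while that of Cdc20 begins 18 bases before it. The windows lie at chr7:122159185-122159484 on the plus strand for Plk1, at chr9:70421505-70421804 on the minus strand for Ccnb2 and at chr4:118437294-118437593 on the minus strand for Cdc20, and each is written along its gene. A match is a description of the letters and was not tested for binding.

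DNA replication genes followed with smaller differences. Of 48 tested, 28 were lower and 0 were higher, against 4.84% of all genes lower. All 48 values were negative, and the median was -0.79. Among 17 genes that license and start replication origins, 12 were lower. Mcm6, a subunit of the replicative helicase, was at 79.9 and 86.0 CPM in the Dll1- libraries, against 39.7 and 41.1 CPM in the Dll1+ libraries, and Mcm5, another subunit, had a log2 fold change of -1.39. In Mcm6 the Dll1+ libraries were well under the Dll1- libraries in both mice (log2 fold change -1.04 ± 0.11 (SE), adjusted p = 0.00488). Of 23 polymerase and fork genes, 11 were lower. Of 8 nucleotide synthesis genes, 5 were lower, with Rrm2, the regulated subunit of ribonucleotide reductase, at 17.4 and 18.9 CPM in Dll1+ cells and 56.3 and 56.0 CPM in Dll1- cells. Rrm2 changed most of this list, by 3.10-fold (log2 fold change -1.63 ± 0.09 (SE), adjusted p = 0.00270), whereas Tk1 was at log2 -0.08. Without the mouse term 15 of the 48 were called, and 0 without mouse 1 or without mouse 2, where the medians were -0.69 and -0.79.

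The E2F motif TTTNGCGC was present in 1.38% of all promoter windows and in 12 of the 48 windows of these genes, with 39 genes matched, and 7 of 21 called genes with a window held it. Mcm5 and Mcm6 are shown as helicase subunits with such letters. In Mcm5 the match overlaps its own reverse complement, so that 12 letters are in capitals.

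Mcm5: gaacTTTCGCGCCAAAacgtccag
Mcm6: tggacgggTTTGGCGCgaagtagc

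These lie 149 and 47 bases before the start, in the windows chr8:75109259-75109558 (plus strand) and chr1:128359656-128359955 (minus strand). Rrm2 had no match in its window.

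Regulators of the step from G1 into S phase were mixed. Of 22 tested, 6 were lower and 1 was higher, beside 4.84% and 4.29% of all tested genes. E2f8, an E2F factor that itself peaks in S phase, was at 10.3 and 9.64 CPM in Dll1- and 3.21 and 2.75 CPM in Dll1+ cells, and Ccne1, the cyclin of S-phase entry, was at log2 -1.61. E2f8 was lower by 3.35-fold, with no overlap between groups. Cdk4, the kinase partner of D-type cyclins, was lower at log2 -0.67, and the D-type cyclins did not pass the test. Rb1, the retinoblastoma repressor of E2F, was the 1 higher member, at 376 and 278 CPM in the Dll1+ and 231 and 166 CPM in the Dll1- libraries. Its level was higher in mouse 1 than in mouse 2, and within each mouse Dll1+ cells had more (log2 fold change 0.73 ± 0.10 (SE), adjusted p = 0.0107). Exons of Rb1 and Cdk4 overlap genes on the opposite strand.

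Genes tied to growth arrest were higher in 7 of 34 cases and lower in 1, beside 4.29% and 4.84% of all tested genes. Their median was 0.24. Tob1, an antiproliferative adaptor of mRNA deadenylation, was at 299.6 and 404 CPM in the Dll1- libraries, against 599 and 798 CPM in the Dll1+ libraries. It was higher in Dll1+ cells of both mice by nearly the same factor (log2 fold change 0.99 ± 0.09 (SE), adjusted p = 0.00385). Of the 5 tested TOB and BTG genes, Tob1, Tob2 and Btg1 were higher. Among 7 CDK inhibitors, Cdkn2b was higher at log2 1.01 and Cdkn2c was lower at log2 -0.63, and Cdkn1a was at log2 1.02 without passing the test (adjusted p = 0.175). Gadd45b, Ndrg1 and Klf6 were the other higher members, at log2 0.83, 0.42 and 0.47.

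**Figure D4:**
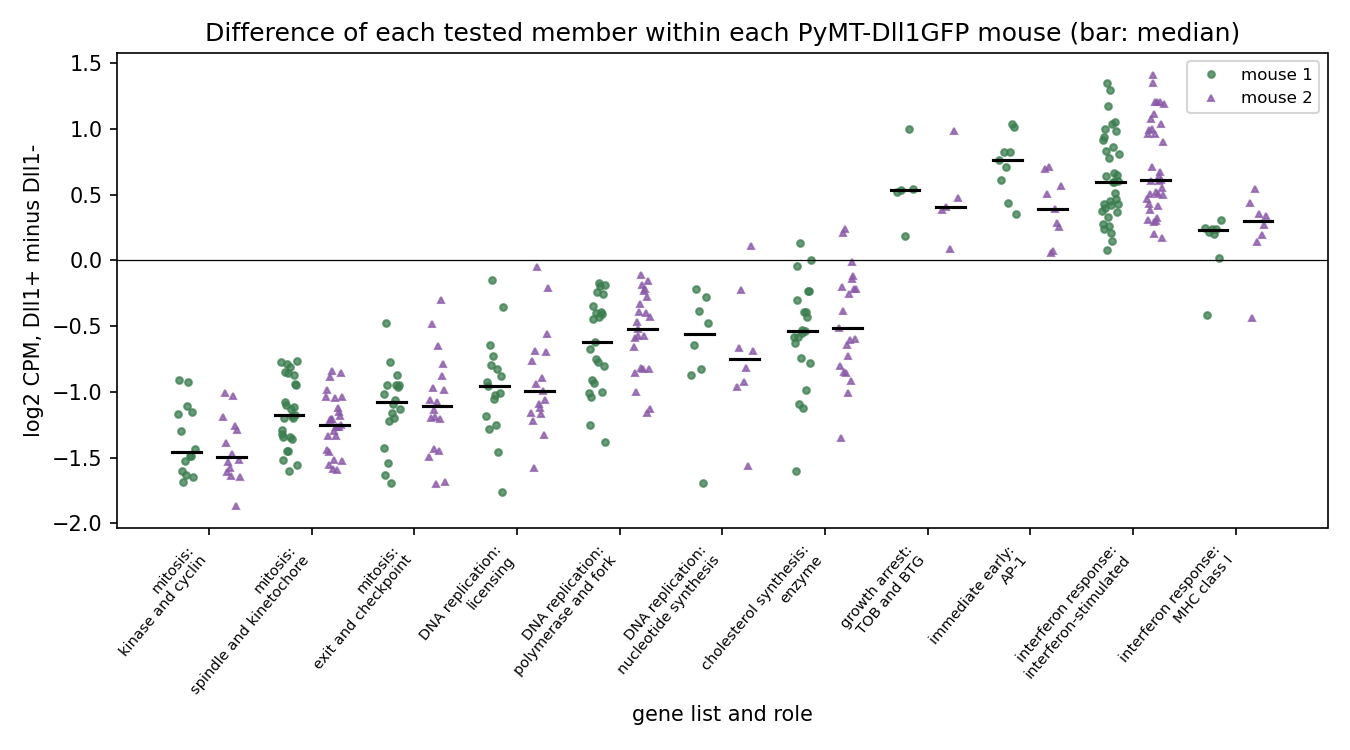
Each point is the log2 CPM difference between Dll1+ and Dll1- cells of 1 tested gene in mouse 1 (green circles) or mouse 2 (purple triangles), by gene list and role, and black bars are medians. Mitosis, DNA replication and cholesterol genes lie mostly below 0 and TOB and BTG, AP-1 and interferon-stimulated genes above 0 in both mice, and the median of the AP-1 genes is 0.76 in mouse 1 and 0.39 in mouse 2.

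Cholesterol synthesis was the next list in which the called genes all went down. Of 26 tested genes, 17 were lower and 0 were higher, against 4.84% of all genes lower, and the median was -0.51. Idi1, the isomerase of isoprenoid units, was at 26.7 and 27.1 CPM in Dll1+ cells and 58.1 and 54.5 CPM in Dll1- cells. Both Dll1+ values of Idi1 were under both Dll1- values by a wide margin, at 2.09-fold (adjusted p = 0.00350). Sqle, the squalene epoxidase, was at log2 -0.69. All 5 tested genes of sterol control and uptake were lower, among them Srebf2, which encodes the factor that drives the pathway, at log2 -0.41. Fdps was lower too, but it shares 1124 of its 4208 exon bases with Gm43738 on the same strand. Of 12 fatty acid genes, Acly, Fasn, Scd2 and Elovl6 were lower and Me1 was higher, beside 4.84% and 4.29% of all tested genes. Without the mouse term 4 cholesterol genes were called, and 0 without either mouse. The sterol response motif TCACCCCNC was found in 1 of 23 windows of these genes, that of Hmgcs1, against 1.75% of all windows.

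Phgdh and Psat1, which encode enzymes of serine synthesis, were lower. Phgdh, the first enzyme of the pathway, was at 82.4 and 75.1 CPM in Dll1- and 28.9 and 26.5 CPM in Dll1+ cells. Psat1, the next enzyme, was at 48.0 and 38.0 CPM in the Dll1+ and 109 and 105 CPM in the Dll1- libraries. Phgdh and Psat1 were separated between the groups in both mice, by 2.84-fold and 2.51-fold (adjusted p = 0.00270 and 0.00270). They belong to a list of 18 integrated stress response genes, of which 3 were lower and 3 were higher. The shares of all tested genes were 4.84% and 4.29%. The third lower member was the amino acid transporter Slc7a5, and the higher ones were Herpud1, Ddit3 and Vldlr, at log2 0.94, 0.74 and 0.72. Ddit3 has 2 gene identifiers in the table, and the one with more counts was used.

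Interferon-stimulated genes were higher. Of 43 tested genes of the interferon list, 18 were higher and 0 were lower, against 4.29% of all genes higher, and the median was 0.51. All 18 were among 35 interferon-stimulated genes, whose values were all positive, and 0 of 8 MHC class I genes passed the edgeR test, with 4 at an unadjusted p under 0.05. Irf7, a transcription factor that amplifies the type I response, was at 54.3 and 55.7 CPM in the Dll1- libraries, against 133 and 128 CPM in the Dll1+ libraries. Isg15, a ubiquitin-like protein, was at 22.2 and 21.7 CPM in Dll1+ cells and 10.8 and 9.39 CPM in Dll1- cells. Oasl2, of the oligoadenylate synthetase family, had a log2 fold change of 1.01. The 2 mice were alike, and Dll1+ cells were above Dll1- cells for Irf7 and Isg15 in each (2.38-fold and 2.18-fold, adjusted p = 0.00270 and 0.00450). Ifit3, Ifit1 and Ifi44 were at log2 1.36, 0.92 and 1.04, although Ifit3 has a near-identical copy, Ifit3b. The immune markers summed to 171.3 to 192 CPM in Dll1- and 186 to 194 CPM in Dll1+ cells. Of the 14 tested, 0 were called in the main fit, while 8 of 11 alternative fits called a member. The part of immune cells in the interferon genes was not tested. Without the mouse term 2 interferon genes were called and without mouse 1 or mouse 2 there were 0, with medians of 0.55 and 0.45, while the fit of the GFP libraries alone called 29.

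The core of the interferon-stimulated response element, GAAANNGAAA on either strand, was in 3.44% of all promoter windows and in 18 of 38 windows of the interferon list, where 33 of 43 genes were matched. Of 15 called genes with a window, 11 held it. The Isg15 promoter carries 3 overlapping matches and is shown whole, chr4:156200769-156201068 on the minus strand, as the densest of the examples. Ifit1 and Ifit3 are shown around the match nearest the start, where the capitals are its reverse complement.

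Isg15: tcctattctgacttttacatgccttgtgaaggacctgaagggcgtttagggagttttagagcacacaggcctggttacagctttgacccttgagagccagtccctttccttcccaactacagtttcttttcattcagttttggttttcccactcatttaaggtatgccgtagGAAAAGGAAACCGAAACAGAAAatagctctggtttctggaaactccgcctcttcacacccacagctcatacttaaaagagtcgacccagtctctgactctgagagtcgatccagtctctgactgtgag
Ifit1: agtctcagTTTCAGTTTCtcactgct
Ifit3: taagtctgTTTCAGTTTCtactttcc

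The nearest match begins 66 bases before the start in Isg15, 85 in Ifit1 and 122 in Ifit3, the latter 2 in the windows chr19:34640639-34640938 and chr19:34583279-34583578 of the plus strand. Irf7 and Oasl2 had no match in their windows.

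NF-kB target and feedback genes were higher in part. Of 61 tested genes of the list, 16 were higher and 1 was lower, beside 4.29% and 4.84% of all tested genes. The median of the list was 0.27. Of the 8 subunits and kinases 0 were called by edgeR, with 3 at an unadjusted p under 0.05, with Nfkb1 at log2 0.23 (adjusted p = 0.235) and Rela at log2 0.25 (adjusted p = 0.244). Among the feedback inhibitors, Nfkbia, which holds NF-kB in the cytoplasm, was at 462 and 603 CPM in Dll1- and 879 and 1033 CPM in Dll1+ cells, and Tnfaip3, the deubiquitinase A20, was at log2 0.99. In Nfkbia the groups did not overlap, at log2 0.85 (adjusted p = 0.00776), and 4 of the 10 feedback genes were higher. Among the cytokine targets, Tnf was at 109.6 and 130.0 CPM in the Dll1+ and 56.4 and 66.9 CPM in the Dll1- libraries. Lif, of the interleukin-6 family, was at 139 and 151 CPM in the Dll1- libraries, against 305 and 406 CPM in the Dll1+ libraries. Both were higher in Dll1+ cells, and mouse 2 had the higher values in each fraction (1.94-fold and 2.44-fold, adjusted p = 0.00350 and 0.00450). The neutrophil chemokine genes Cxcl1, Cxcl2 and Cxcl5 were higher at log2 1.40, 1.26 and 1.87. Other known targets, Il6 at log2 0.19, Icam1 at log2 -0.31 and Birc3 at log2 0.21, did not pass the test. Among the survival genes, Traf1, an adaptor of TNF receptors, was at 55.1 and 121 CPM in Dll1+ cells and 14.7 and 41.0 CPM in Dll1- cells. Traf1 was higher in mouse 2 in both fractions, with a fold change of 3.30. Ptgs2 and Ptx3 were at log2 1.46 and 1.82, and Tgfb2 was the 1 lower member. Without the mouse term 1 of the list was called, and without mouse 1 or mouse 2 there were 0, with medians of 0.35 and 0.21.

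The kappaB motif GGGANNTTCC stood in 1.47% of all promoter windows and in 10 of 57 windows of the NF-kB list, with 47 genes matched. Of 15 called genes with a window, Cxcl1, Cxcl2 and Nfkbia held it. The sites of Nfkbia and Cxcl1 are shown as a feedback gene and a chemokine gene with these letters, where the capitals of Nfkbia are the reverse complement of the motif.

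Nfkbia: actggcttGGAAATTCCCcgcgcctg
Cxcl1: gtactccGGGAATTTCCCtggcccgg

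They begin 29 and 70 bases before the start, in chr12:55492598-55492897 (minus strand) and chr5:90890995-90891294 (plus strand). Cxcl1 holds 2 overlapping matches, 1 on each strand. Tnf and Tnfaip3 had none in their windows.

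Immediate early genes, which cells induce quickly after growth signals or stress, were higher in 8 of 32 cases and lower in 1. The shares of all tested genes were 4.29% and 4.84%. Atf3, a stress-induced factor of the AP-1 group, was at 1064 and 1089 CPM in Dll1- and 1805 and 1757 CPM in Dll1+ cells, and Egr1, a zinc-finger factor induced by growth signals, was at 3242 and 3400.2 CPM in the Dll1+ and 1889 and 1914 CPM in the Dll1- libraries. Both were higher in each mouse, at log2 0.73 and 0.80 (adjusted p = 0.0137 and 0.0267). Egr3, a relative of Egr1, was the 1 lower member, at log2 -0.55. Of 8 heat shock genes, 0 passed the edgeR test, with 2 at an unadjusted p under 0.05.

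Growth factor genes of the EGF and FGF pathways changed on the side of the receptor, the ligand and the feedback. Of 32 tested genes, 11 were higher and 4 were lower, beside 4.29% and 4.84% of all tested genes. Nrg1, a neuregulin ligand of ERBB receptors, was at 2.73 and 3.60 CPM in the Dll1- libraries, against 17.6 and 18.6 CPM in the Dll1+ libraries. Fgfr1, a fibroblast growth factor receptor, was at 781 and 992 CPM in Dll1+ cells and 330.2 and 376 CPM in Dll1- cells. Both genes were higher in Dll1+ cells of both mice (5.74-fold and 2.50-fold, adjusted p = 0.00270 and 0.00283). Egfr and Met, further receptors of this kind, were higher at log2 1.09 and 0.65, and Erbb2 was at log2 0.19 without passing. Of the 7 tested receptors, 3 were called higher and 0 lower, but 2 values were negative, the lowest at log2 -2.13. By edgeR, 2 receptors were lower at an unadjusted p under 0.05. Of the ligands, Hbegf and Nrg2 were higher and Areg and Egf were lower. The feedback inhibitors Spry2, Spry4, Dusp1, Dusp6 and Lrig1 were higher, and Dusp4 and Dusp10 were lower.

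Wnt pathway genes showed 2 higher and 4 lower members of 35, beside 4.29% higher and 4.84% lower of all tested genes. Axin2, a target and inhibitor of canonical Wnt signaling, was at 3.65 and 4.61 CPM in Dll1- and 1.19 and 1.12 CPM in Dll1+ cells. Axin2 was lower in both Dll1+ libraries (log2 fold change -1.84 ± 0.25 (SE), adjusted p = 0.0109), as were Wnt4, Rspo1 and Tcf7, whereas the co-receptor Lrp6 and the secreted inhibitor Sfrp1 were higher, at log2 0.40 and 1.10.

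Of 47 matrix and invasion genes, 6 were higher and 0 were lower, beside 4.29% and 4.84% of all tested genes. Col11a1, a fibrillar collagen, was at 399 and 401 CPM in the Dll1+ and 172 and 187 CPM in the Dll1- libraries, with almost equal values in the 2 mice (log2 fold change 1.16 ± 0.10 (SE), adjusted p = 0.00371). Itgav, Col18a1, Mmp14, Mmp15 and Snai1 were the others, at log2 0.45 to 0.86, and the type I and III collagens lay between -0.13 and -0.10. Of 42 hypoxia and glycolysis genes, 9 were higher and 2 were lower, beside the same 4.29% and 4.84%. Car12, a carbonic anhydrase, and Pfkp, a phosphofructokinase, were higher at log2 1.16 and 1.11, Stc2 was lower at log2 -2.49, and Vegfa was at log2 0.25 without passing the test. Of 22 p53 targets, Trp53inp1 was higher and Ckap2 lower, a share near that of all tested genes (4.29% and 4.84%). Oxidative phosphorylation, cytosolic ribosome and proteasome genes had 3 of 52, 1 of 56 and 2 of 31 lower members and 0 higher, against a background of 4.84%, with medians of -0.20, -0.28 and -0.22. Values were negative for 55 of the 56 ribosomal genes.

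**Figure D5:**
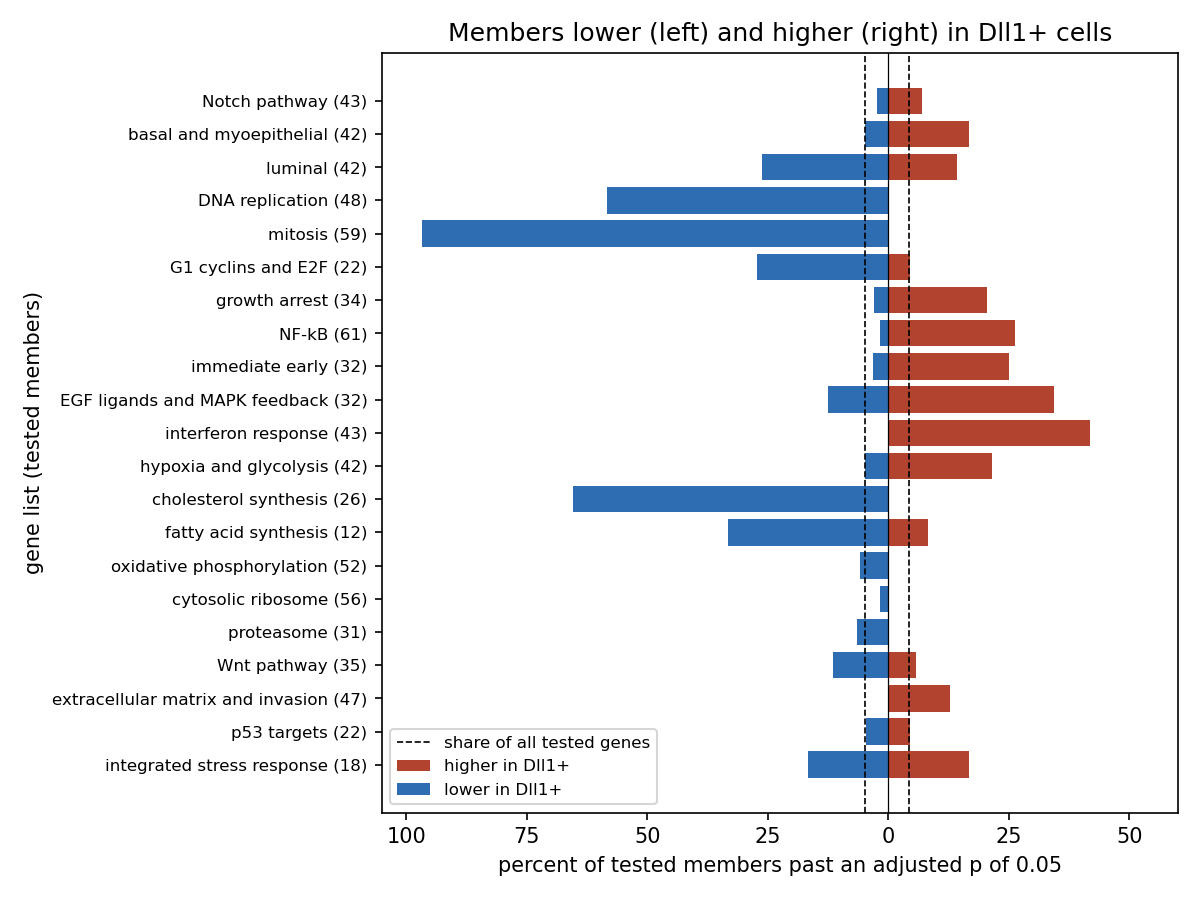
For each gene list drawn (tested members in brackets), bars give the percent of members lower (blue, left) or higher (red, right) in Dll1+ cells. The threshold is an adjusted p of 0.05, and dashed lines give the shares of all 18322 tested genes, 4.84% lower and 4.29% higher. Among the lists drawn, mitosis, cholesterol synthesis and DNA replication reach farthest to the left, and the interferon and EGF lists farthest to the right. Cell type markers and the list of secreted bone and neural genes, with 6 of 14 tested members higher, are not drawn. That list holds Amtn, Npy, Hepacam2 and Spp1, which are also named among the called genes of highest fold change or most counts. All lists were chosen with earlier results of these data known, so that its count is no test.

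By annotation, 732 of the higher and 846 of the lower genes were protein-coding. Among 631 tested lincRNAs, 19 (3.01%) were higher and 7 (1.11%) were lower, and among 1489 pseudogenes 10 (0.672%) were higher and 24 (1.61%) were lower, against 4.29% and 4.84% of all tested genes.

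The same effect was fitted in the PyMT-Dll1mCh mice, in which 1009 genes (5.51%) were higher and 1145 (6.25%) were lower. Of the 786 genes higher in the GFP mice, 711 (90.5%) had a positive value in the mCherry mice, compared with 52.4% of all tested genes, and 416 were called higher there. Of the 887 lower genes, 823 (92.8%) had a negative value, compared with 47.6% of all genes, and 393 were called lower. Opposite calls were made for 14 of the higher and 7 of the lower genes. The difference between reporters was called for 13 genes, 0.071% of those tested, of which 12 were more positive in GFP mice. Spry4, the feedback inhibitor named above, was at 17.1 and 19.4 CPM in the Dll1- libraries, against 34.2 and 34.1 CPM in the Dll1+ libraries. Spry4 was 1.87-fold higher in Dll1+ cells of the GFP mice (log2 fold change 0.91 ± 0.10 (SE), adjusted p = 0.00608) and at log2 -0.65 in the mCherry mice. Atp10a, F13a1, Igfbp4 and Serpine2 were also higher in the GFP and negative in the mCherry contrast. Abcc9, Kcnj8 and Rgs5, markers of pericytes, together with Lyz2, Ccdc80 and Gm11914, were not called in the GFP contrast, with log2 fold changes from -0.56 to 0.63, and were at -2.95 to -1.20 in the mCherry contrast, apart from Gm11914, which had 0 counts in both mCherry Dll1+ libraries. CT010467.1 was the 1 gene more negative in GFP mice, but it shares 923 of 2466 exon bases with AY036118 on the same strand and 1822 with Gm42418 on the other. The pericyte markers summed to 157 to 199 CPM in the 4 GFP libraries, whereas in the mCherry mice they were at 620 and 790.3 CPM in Dll1- and 202 and 193 CPM in Dll1+ cells, and the part of this in the difference between reporters was not tested.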

How the data were processed

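RNA of sorted tumor cells was sequenced from TruSeq Stranded libraries. The authors quantified reads with Salmon against GENCODE mouse transcripts (GRCm38.p6) and used tximport to sum transcripts by gene. The deposited values are the authors' estimated counts, written as whole numbers without normalization, for 53697 genes in 8 libraries. The Salmon version and strand setting were not given in the sources used here. Symbols and exons were taken from a GRCm38 GENCODE annotation, which matched 53668 identifiers.

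Genes were tested with edgeR 4.0.16 (R 4.3.3; TMM, filterByExpr on Dll1+ and Dll1- groups, robust quasi-likelihood F test, Benjamini-Hochberg over 18322 genes, threshold 0.05). The model held all 8 libraries, the mouse and a Dll1+ effect for each reporter, since the study's methods modelled Dll1 status and mouse in DESeq2. Pairs come from the mouse named in the labels. Deviations of paired libraries from their group means correlated at -0.05 in GFP and 0.55 in mCherry mice. Log2 differences within a mouse used a prior count of 2. The 4 GFP libraries held 27301396 to 45198980 counts, which sets the precision for genes of few counts.

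Genes named are Dll1, the 15 highest and 15 lowest called log2 fold changes with the same sign in both mice and a mean of at least 1 CPM, the 10 called genes with the highest CPM, up to 4 called members of each list with the lowest p, members whose role a sentence needs, genes that differ between reporters, and Ptprc, Pecam1 and Epcam. Other list members, and genes that overlap a named gene, were named after their values were seen. Members and lists were chosen with earlier results of these data known. A few genes picked by this rule are left out of the text. Promoter windows came from RefSeq (GRCm38.p6). Alternatives were other size factors, DESeq2 1.42.0, other filters, no mouse term, the GFP libraries alone and each mouse left out.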

Additional observations from a re-analysis of the deposited data

Results flagged for a closer look

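The effect of Dll1+ status differed between PyMT-Dll1GFP and PyMT-Dll1mCh mice for 13 genes by edgeR's test of the difference itself. For those reported here, as the GFP minus the mCherry log2 fold change, the differences were 3.10 for Rgs5, 2.76 for Abcc9, 2.52 for F13a1, 2.41 for Kcnj8, 2.18 for Atp10a, 1.76 for Ccdc80, 1.66 for Serpine2, 1.55 for Spry4, 1.40 for Igfbp4 and 1.25 for Lyz2. Gm11914 was at 9.44, where both mCherry Dll1+ libraries were at 0, so that this fitted value depends on the prior count and is no bound. CT010467.1 was at -4.24, an rRNA gene whose exons share 1822 of 2466 bases with Gm42418 on the opposite strand. Of the 13 genes, 7 were called in the GFP contrast.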

How the results depend on the processing

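Against 1673 genes (786 higher, 887 lower), other size factors gave 1674, DESeq2 2053, a filter on 4 groups 1754, at least 10 counts in every library 1972, the GFP libraries alone 2337 and the same sign in both mice 1670. Without a filter there were 3001 (1450 and 1551), with at least a 2-fold change 628 (261 and 367), and with no replicate block, so that libraries were not paired by mouse, 274 (93 and 181). Leaving out 1 mouse of either reporter gave 2 to 2355 genes (1 to 1147 higher, 1 to 1215 lower); the lone pair was then assumed to vary like the other mice. Fewer pairs enter such fits, and 3278 and 3138 genes had an unadjusted p under 0.05 without GFP mouse 1 or 2. For the difference between reporters, 13 genes became 10 with other size factors, 540 with DESeq2, 45 with the filter on 4 groups, 1143 without a filter, 44 with at least 10 counts and 0 with no replicate block (edgeR, 1309 at an unadjusted p), and 0 to 717 with a mouse left out, where the 0 without GFP mouse 1 or 2 stand beside 2124 and 1808 at an unadjusted p. The cause was not tested. Among called genes that the naming rule picks, 0 fell short of the threshold with other size factors or with DESeq2, and 37 stayed past it with no replicate block, 6 without GFP mouse 1 and 1 without GFP mouse 2, and 0 changed sign. Of the ribosomal genes 1 was called lower, against 17 with DESeq2 and 12 with the GFP libraries alone, and of the interferon genes 18 were called, against 25 and 29. Depth limits genes of few counts, such as Bglap2, Slc26a4 and Trp73.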
